A study of Mus musculus with 2 samples.

Results

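The proteasome genes of mouse haematopoietic stem cells, 45 genes named Psma, Psmb, Psmc, Psmd, Psme, Psmf or Psmg with a number, were compared between 2 RNA-seq libraries. They were chosen by symbol among 23961 gene symbols, with earlier results of these data known. Pseudogene names and the induced subunits Psmb8, Psmb9 and Psmb10 were left out. Their levels were close in the 2 libraries: 44 of the 45 differed by less than 1.5-fold on the log2(FPKM + 1) scale, a threshold that 4.31% of all measured genes passed, and the exception was Psma8, a low-expressed subunit known from testis. The 1 library labelled Per2def came from untreated Per2-deficient C57BL/6 mice and the 1 library labelled Per2wt from untreated wild-type C57BL/6 mice, all kept under a 12:12 light and dark cycle on regular chow. Per2 is a core clock gene whose protein holds back its own transcription, and the study set the transcriptomes of sorted bone marrow stem cells of the genotypes side by side. The sources used here do not give the Per2 allele, the sort markers, the age of the animals, the time of collection or the number of animals behind each library.

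The proteasome is the barrel-shaped protease that destroys proteins marked with ubiquitin. Its core particle has outer rings of alpha subunits, which gate the entrance, and inner rings of beta subunits, of which Psmb5, Psmb6 and Psmb7 carry the cutting sites. A regulatory particle caps the core: its base holds the ATPases that unfold substrates, and its lid removes the ubiquitin chain. Other caps (activators) open the core without ATP, and dedicated chaperones help to assemble each part. Haematopoietic stem cells are known for tight control of protein synthesis and of protein quality.

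Values are FPKM, fragment counts relative to transcript length and to all mapped fragments of the library, estimated by the authors with Cufflinks. Differences are log2(FPKM + 1) in the library labelled Per2def minus the same in the library labelled Per2wt, a scale that understates changes of low genes. Each genotype has a single library, so replicate spread is unknown, nothing was tested, and each difference is one between these libraries. Read totals are not in these files, which leaves the absolute depth unknown and allows no counting interval. Among 3232 low genes the most common FPKM ratio was that of a library labelled Per2def 1.24 times as deep as the other. Per2 itself stood at 6.16 FPKM in the library labelled Per2def and at 1.96 FPKM in the library labelled Per2wt, which goes against the label if the allele removes the transcript, so directions are given between the libraries as labelled. Of 12 stem and progenitor markers 9 reached 1 FPKM, among them Kit at 43.6 FPKM in the Per2def-labelled library and 42.7 FPKM in the Per2wt-labelled library. Cd34, Flt3 and Ly6a stood at 83.9, 51.4 and 6.54 FPKM in the Per2def-labelled library, against 90.5, 48.8 and 6.61 FPKM in the Per2wt-labelled library. The stem cell markers Slamf1, Fgd5 and Hoxb5 were under 1 FPKM in both. Markers of other cells moved beside the proteasome genes: 10 neutrophil granule genes, 10 of 10 higher, summed to 994 FPKM in the library labelled Per2def and 517 FPKM in the library labelled Per2wt. The 11 erythroid genes, 6 higher and 5 lower, summed to 751 FPKM in the Per2def-labelled library and 798 FPKM in the Per2wt-labelled library. These close sums hide a split by kind of gene. The 5 lower ones were all globin genes. Hbb-bs was the extreme, at 0.00297 FPKM in the Per2def-labelled library and 29.2 FPKM in the Per2wt-labelled library. The other beta globin genes Hbb-b1 and Hbb-bt stood at 48.7 and 41.2 FPKM in the Per2def-labelled library, against 75.7 and 71.0 FPKM in the Per2wt-labelled library. Whether reads were shared among globin genes was not tested. The 6 higher ones were the non-globin genes, with Car1 at 294 FPKM in the Per2def-labelled library and 177 FPKM in the Per2wt-labelled library. T cell, B cell, stromal and endothelial markers summed to 4.02, 6.19, 6.13 and 14.2 FPKM in the Per2def-labelled library, against 1.75, 6.54, 5.01 and 13.2 FPKM in the Per2wt-labelled library. The part of cell composition in the values below was not tested, and in bulk RNA fewer cells of a type and less RNA per cell cannot be told apart.

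NRF1, encoded by Nfe2l1, is the transcription factor known to raise proteasome genes when proteasome activity falls, through the antioxidant response element. RefSeq promoter windows on GRCm38.p6, from 250 bases before to 50 after the start, were at hand for 37 of the 45 genes in 40 windows. The core letters of that element, TGACNNNGC on either strand, were in 15.0% of these windows and in 12.4% of all 32851 promoters. The 6 matches are shown because they lie beside members of different parts of the complex, with the motif in capitals on the gene's strand.
Psmb5, chr14:54618024-54618052, minus strand: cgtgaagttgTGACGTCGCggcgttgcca
Psmb6, chr11:70525338-70525366, plus strand: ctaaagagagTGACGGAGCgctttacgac
Psmc6, chr14:45329587-45329615, plus strand: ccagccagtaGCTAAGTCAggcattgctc
Psmd9, chr5:123228149-123228177, plus strand: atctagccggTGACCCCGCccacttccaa
Psmd12, chr11:107479278-107479299, plus strand: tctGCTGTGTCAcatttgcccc
Psme4, chr11:30771758-30771786, plus strand: cgctgcggctGCAGCGTCAccagaagagc
Of these 6 genes 4 were higher and 2 lower in the library labelled Per2def, beside 62.0% higher among all measured genes. The 6 thus shared no direction. The CCAAT box, CCAAT on either strand, was in 32.5% of the member windows and in 37.4% of all promoters. Base composition set the member windows apart more, with a median GC content of 58.2% and 19 CpG pairs per window, against 52.7% and 7 over all promoters. A match is a description of letters and not a binding site. The genes lie on 16 chromosomes and are mostly scattered. Neighbours within 20 kb of each other were Psmb5 and Psmb11, 3410 bases apart, and Psme1 and Psme2, 5911 bases apart.

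The set as a whole showed no shift that outlasted a change of scaling. Of the 45 genes 27 (60%) had the higher value in the library labelled Per2def and 18 the lower one, beside 62.0% higher among the 11121 genes that reached 1 FPKM in at least 1 library. The median difference was 0.02, against 0.05 over all those genes. Scaling the libraries by the median of ratios turned this to 16 higher and 29 lower with a median of −0.03. Psma8 was the 1 member at least 2-fold higher, where 1.25% of all genes were, and 0 members were at least 2-fold lower, where 0.998% of all genes were. All 45 genes reached 1 FPKM in at least 1 library, and Psma8 did so in the library labelled Per2def alone. Summed FPKM over the 45 genes was 1514 in the library labelled Per2def and 1503 in the library labelled Per2wt.

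**Figure D1:**
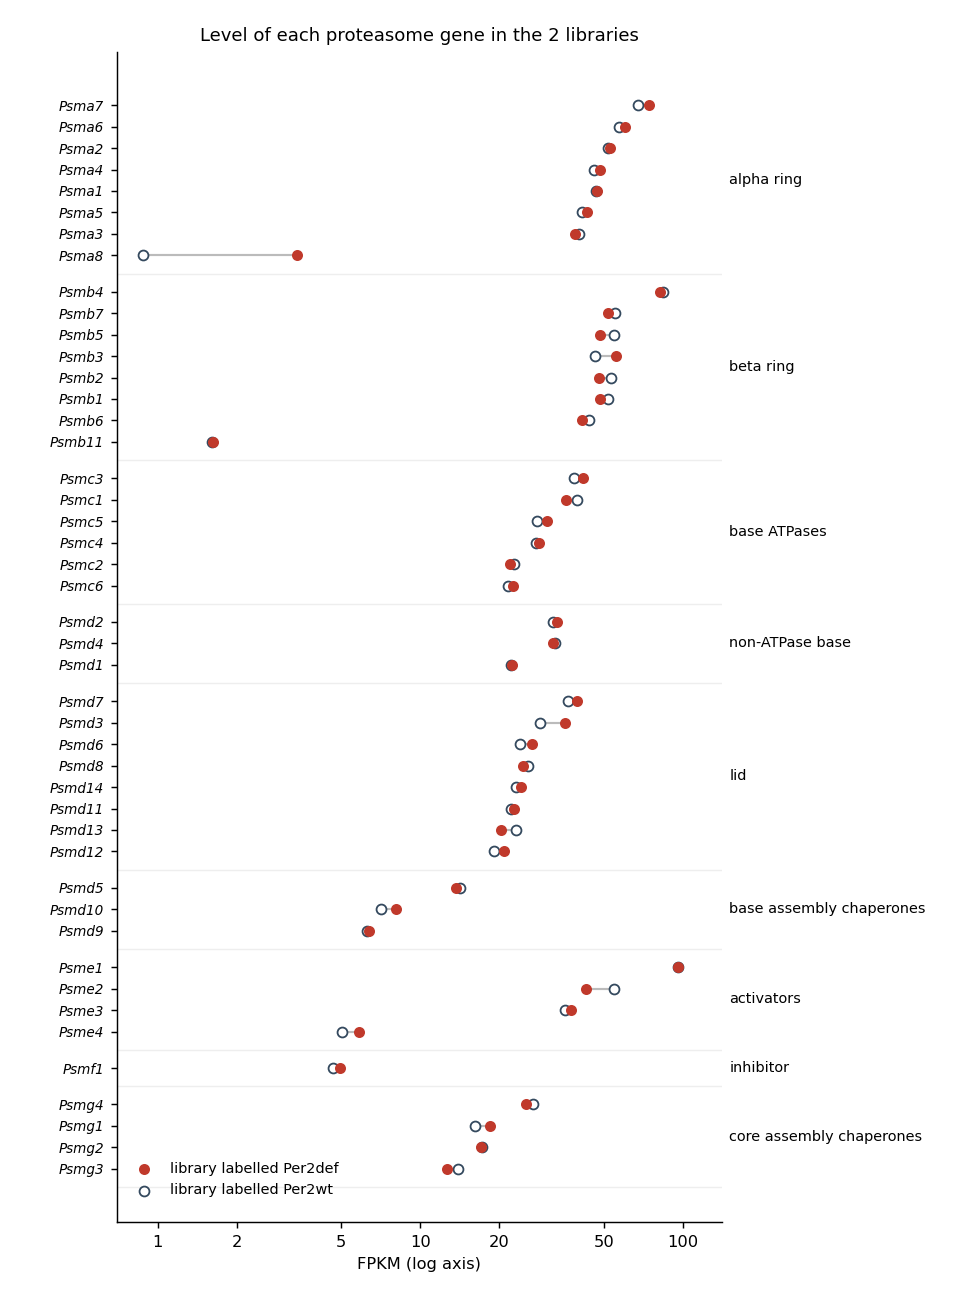
FPKM of each proteasome gene (log axis) in the library labelled Per2def (filled) and the library labelled Per2wt (open), grouped by place in the complex and ordered by mean level. Most pairs of points nearly coincide, while Psma8 stands apart at 3.39 FPKM in the Per2def-labelled library and 0.877 FPKM in the Per2wt-labelled library.

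Levels per transcript length followed the place in the complex. The 14 standard core genes had a median of 48.5 FPKM in the library labelled Per2def and 51.9 FPKM in the library labelled Per2wt. The ATPase genes had medians of 29.4 FPKM in the Per2def-labelled library and 27.6 FPKM in the Per2wt-labelled library. The lid genes had medians of 24.4 FPKM in the Per2def-labelled library and 23.5 FPKM in the Per2wt-labelled library, so the core median stood above the lid and ATPase medians in both. As ratios of medians within a library, core over lid was 1.98 in the library labelled Per2def and 2.21 in the library labelled Per2wt, and core over ATPase 1.65 in the Per2def-labelled library and 1.88 in the Per2wt-labelled library. Within the 14 core genes the highest level was 2.10 times the lowest in the library labelled Per2def and 2.09 times in the library labelled Per2wt, although the subunits enter the particle in equal numbers. The levels of the 45 genes ran in nearly the same order in both libraries (Spearman's rho 0.982 and Pearson's r 0.977 on log2 FPKM, across genes, which share both libraries and are not replicates). The widest gap in rank was 8 places, that of Psme2, which ranked 14 in the library labelled Per2def and 6 in the library labelled Per2wt.

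The alpha ring genes leaned higher in the library labelled Per2def by small amounts, a lean that median-of-ratios scaling removed. Of 8 alpha genes 7 were higher (median difference 0.07), against 4 higher and 4 lower under that scaling (median −0.00060), where Psma1, Psma2 and Psma5 turned to lower. Before that scaling 87.5% of the alpha genes were higher, beside 62.0% of all measured genes, whose median was 0.05. Psma7, the most abundant of them, stood at 74.1 FPKM in the library labelled Per2def and 67.2 FPKM in the library labelled Per2wt (0.14). Psma3 was the lower one, at 38.7 FPKM in the Per2def-labelled library and 40.1 FPKM in the Per2wt-labelled library (−0.05), and it was also the lowest in level of the 7 standard genes. Psma2, at 52.6 FPKM in the Per2def-labelled library and 51.9 FPKM in the Per2wt-labelled library (0.02), had the next lowest difference. Psma1, Psma4, Psma5 and Psma6 lay between 43.2 and 60.1 FPKM in the library labelled Per2def and between 41.3 and 57.1 FPKM in the library labelled Per2wt. Summed over Psma1 to Psma7, the ring stood at 364 FPKM in the Per2def-labelled library and 350 FPKM in the Per2wt-labelled library.

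Psma8 encodes an alpha subunit close to Psma7 that is known from the proteasome of male germ cells. It stood at 3.39 FPKM in the library labelled Per2def and at 0.877 FPKM in the library labelled Per2wt, 3.86-fold higher as a plain ratio and 1.23 on the log2(FPKM + 1) scale. Set against Psma7 in the same library, its level was 4.57% in the Per2def-labelled library and 1.30% in the Per2wt-labelled library. Of 3367 other genes within 2-fold of its mean level, small and predicted RNAs left out, 0.0594% had a larger difference. Psma8 was singled out as the largest difference of the set and reached 1 FPKM in the library labelled Per2def alone. The share therefore describes its place among these genes and is not a test. With a pseudocount of 0.1 FPKM the difference was 1.84. No other annotated transcript matched it over 200 bases at 90% identity, and no annotated gene overlapped it. At this level the value rests on few reads, and its counting error is unknown.

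The beta ring genes leaned lower under every scaling tried. Of 8 beta genes 6 were lower in the library labelled Per2def (median difference −0.08, and −0.15 under median-of-ratios scaling), and these 6 kept that direction throughout. By comparison 25% of the beta genes and 62.0% of all measured genes were higher, the latter with a median of 0.05. Psmb5, the subunit with chymotrypsin-like activity (gene at chr14:54614119-54618022, GRCm38), had 48.2 FPKM in the library labelled Per2def and 54.7 FPKM in the library labelled Per2wt (−0.18), the lowest difference of the ring. Psmb6, with caspase-like activity, stood at 41.4 FPKM in the Per2def-labelled library and 43.7 FPKM in the Per2wt-labelled library (−0.08). Psmb7, with trypsin-like activity, stood at 51.7 FPKM in the Per2def-labelled library and 55.1 FPKM in the Per2wt-labelled library (−0.09). All of the 3 catalytic genes were thus lower, and their sum was 141 FPKM in the library labelled Per2def and 153 FPKM in the library labelled Per2wt. Among the non-catalytic subunits, Psmb2 had the second lowest difference of the ring, at 47.9 FPKM in the Per2def-labelled library and 53.2 FPKM in the Per2wt-labelled library (−0.15). Psmb1 stood at 48.5 FPKM in the Per2def-labelled library and 51.8 FPKM in the Per2wt-labelled library (−0.09). The abundant Psmb4 stood at 81.5 FPKM in the Per2def-labelled library and 83.7 FPKM in the Per2wt-labelled library (−0.04). Psmb11, the beta subunit known from thymic epithelium, was low and level at 1.63 FPKM in the Per2def-labelled library and 1.61 FPKM in the Per2wt-labelled library.

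Psmb3 was the exception of the beta ring, at 55.5 FPKM in the library labelled Per2def and 46.0 FPKM in the library labelled Per2wt (0.27). The gene (chr11:97703399-97713500, GRCm38) encodes a non-catalytic subunit. Of 864 other genes of like level 3.47% had a larger difference, a description only, since Psmb3 was singled out for its difference. Its transcript has 7 annotated near copies elsewhere (90% identity or more over 200 bases or more), so reads may have been shared and the value is uncertain. Matches at this threshold were found for 18 of the 45 genes, with 38 matching genes in all. Of those, 28 are annotated as pseudogenes and 33 have no row in the files. For Psmb7, Psmd1, Psmd13 and Psmg3 the only match is a gene that overlaps the member itself, which is no copy elsewhere. Among the genes with matches elsewhere are the catalytic Psmb5 and Psmb6, the lower Psmb1, and Psma3 with 7 matches. The same uncertainty therefore holds for their values. Psmb7 is overlapped by Nek6 over 6571 bases on the opposite strand. Nek6 stood at 2.05 FPKM in the Per2def-labelled library and 2.20 FPKM in the Per2wt-labelled library. As the strand setting of the counting is not given, reads of Psmb7 and Nek6 cannot be told apart with certainty.

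The lean of the rings against each other can be read without any scaling, as a ratio within each library. The summed level of Psma1 to Psma7 over that of Psmb1 to Psmb7 was 0.972 in the library labelled Per2def and 0.901 in the library labelled Per2wt, 7.87% higher. Leaving out Psmb3 the ratios were 1.14 in the Per2def-labelled library and 1.02 in the Per2wt-labelled library. A further ratio left out every gene with a near copy or with a matching gene that overlaps it. With Psma1, Psma6 and Psma7 over Psmb2 and Psmb4, it was 1.40 in the Per2def-labelled library and 1.25 in the Per2wt-labelled library. These ratios were chosen after the values were seen, and with 1 library each their spread between samples is unknown.

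**Figure D2:**
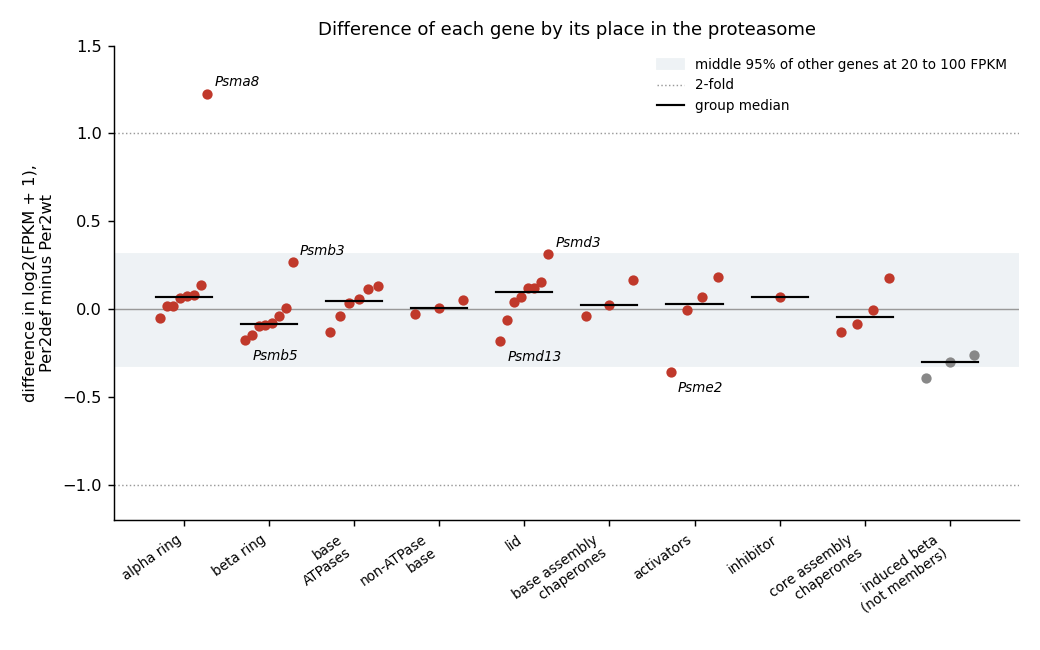
Difference in log2(FPKM + 1), library labelled Per2def minus library labelled Per2wt, for each gene by its place in the complex; black lines are group medians, dotted lines 2-fold, and the shaded band runs from −0.33 to 0.32, the middle 95% of other genes at 20 to 100 FPKM. The alpha ring median lies at 0.07 (−0.00060 under median-of-ratios scaling) and the beta ring median at −0.08 (−0.15), while Psma8 (1.23) lies above the 2-fold line and Psme2 (−0.36) just under the band. Grey points are the induced subunits outside the set.

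The ATPases, which form the unfolding ring of the base, split 4 higher to 2 lower, and 2 higher to 4 lower under median-of-ratios scaling, where Psmc4 and Psmc6 turned. Without that scaling 66.7% were higher, beside 62.0% of all measured genes. Psmc5 stood at 30.4 FPKM in the library labelled Per2def and 27.7 FPKM in the library labelled Per2wt (0.13). Psmc3, the most abundant, stood at 41.6 FPKM in the Per2def-labelled library and 38.4 FPKM in the Per2wt-labelled library (0.11). On the lower side Psmc1 (−0.20 under median-of-ratios scaling) stood at 35.9 FPKM in the Per2def-labelled library and 39.5 FPKM in the Per2wt-labelled library (−0.13). Psmc2 stood at 21.9 FPKM in the Per2def-labelled library and 22.6 FPKM in the Per2wt-labelled library (−0.04). Psmc6, the lowest in level by the mean of the libraries, stood at 22.5 FPKM in the Per2def-labelled library and 21.6 FPKM in the Per2wt-labelled library (0.06). Psmc4 stood at 28.3 FPKM in the Per2def-labelled library and 27.5 FPKM in the Per2wt-labelled library (0.04). The other base subunits were nearly level, 2 of 3 higher and 0 of 3 under median-of-ratios scaling. The scaffold genes Psmd1 and Psmd2 stood at 22.2 and 33.1 FPKM in the library labelled Per2def, against 22.1 and 31.8 FPKM in the library labelled Per2wt. Psmd4, a ubiquitin receptor, stood at 31.9 FPKM in the Per2def-labelled library and 32.6 FPKM in the Per2wt-labelled library (−0.03).

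The lid had the highest median difference of the groups with more than 1 gene, 0.10, with 6 of 8 genes (75%) higher in the library labelled Per2def. All measured genes had a median of 0.05, with 62.0% higher. Under median-of-ratios scaling 5 of 8 lid genes were higher (median 0.03), and Psmd11 turned. Psmd3, a scaffold subunit of the lid (chr11:98682554-98695979, GRCm38), led at 35.6 FPKM in the library labelled Per2def and 28.5 FPKM in the library labelled Per2wt (0.31). Of 1510 other genes of like level 3.25% had a larger difference, a description only, since Psmd3 was singled out for its difference. Psmd6 followed at 26.7 FPKM in the Per2def-labelled library and 23.8 FPKM in the Per2wt-labelled library (0.16). Psmd7, the partner of the deubiquitinase and the most abundant of these 8 genes, stood at 39.6 FPKM in the Per2def-labelled library and 36.3 FPKM in the Per2wt-labelled library (0.12). Psmd14, the deubiquitinase that cuts off ubiquitin chains, stood at 24.3 FPKM in the Per2def-labelled library and 23.1 FPKM in the Per2wt-labelled library (0.07). Psmd12 stood at 20.7 FPKM in the Per2def-labelled library and 19.0 FPKM in the Per2wt-labelled library (0.12). Psmd11 stood at 22.7 FPKM in the Per2def-labelled library and 22.0 FPKM in the Per2wt-labelled library (0.04). A730017L22Rik, 97.9% identical to Psmd11 over 1501 bases, stood at 9.15 FPKM in the Per2def-labelled library and 7.72 FPKM in the Per2wt-labelled library. Reads may have been shared between them. The enzyme gene therefore differed less than Psmd3, Psmd6, Psmd7 and Psmd12. Psmd13 went the other way, at 20.2 FPKM in the Per2def-labelled library and 23.0 FPKM in the Per2wt-labelled library (−0.18). Sirt3 overlaps it by 342 bases on the opposite strand and stood at 18.7 FPKM in the Per2def-labelled library and 17.3 FPKM in the Per2wt-labelled library, and since the strand setting of the counting is not given their reads cannot be told apart with certainty. Psmd8 stood at 24.6 FPKM in the Per2def-labelled library and 25.8 FPKM in the Per2wt-labelled library (−0.06). Summed lid FPKM was 214 in the library labelled Per2def and 202 in the library labelled Per2wt.

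Among members of the set above 5 FPKM the largest difference was that of an activator gene. The activators split 2 higher to 2 lower, or 1 to 3 under median-of-ratios scaling, where Psme3 turned. Without that scaling 50% were higher, beside 62.0% of all measured genes. Psme2, which with Psme1 builds the interferon-induced PA28 ring that favours release of peptides for antigen presentation, stood at 42.6 FPKM in the library labelled Per2def and 54.8 FPKM in the library labelled Per2wt (−0.36). Of 926 other genes of like level 2.05% had a lower difference. Psme2 was singled out as the lowest difference of the set, so this share is a description and not a test. Its partner Psme1, the most abundant of the 45 genes, was level at 95.7 FPKM in the Per2def-labelled library and 95.9 FPKM in the Per2wt-labelled library (−0.0028). The ratio of Psme2 to Psme1 was 0.445 in the library labelled Per2def and 0.571 in the library labelled Per2wt. Psme2b, a gene 99.4% identical to Psme2 over 794 bases and outside the member rule, stood at 7.04 FPKM in the Per2def-labelled library and 8.34 FPKM in the Per2wt-labelled library. Summing Psme2 and Psme2b gave a ratio to Psme1 of 0.518 in the Per2def-labelled library and 0.658 in the Per2wt-labelled library. Psme3, the nuclear form of the PA28 activator, stood at 37.4 FPKM in the Per2def-labelled library and 35.7 FPKM in the Per2wt-labelled library (0.07). Psme4, a large single-chain cap, was low at 5.83 FPKM in the Per2def-labelled library and 5.01 FPKM in the Per2wt-labelled library (0.18).

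The 250 bases before the start of Psme1 and Psme2 are shown because these partner genes, neighbours on chromosome 14, parted in level. RefSeq gives 2 start sites for Psme2, and the window of the upstream one is printed.
Psme1, chr14:55578244-55578493, plus strand, GRCm38.p6: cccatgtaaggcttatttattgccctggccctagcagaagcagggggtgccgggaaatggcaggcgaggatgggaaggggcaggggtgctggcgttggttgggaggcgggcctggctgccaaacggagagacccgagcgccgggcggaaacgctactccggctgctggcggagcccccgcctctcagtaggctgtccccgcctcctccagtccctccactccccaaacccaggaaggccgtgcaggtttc
Psme2, chr14:55591102-55591351, minus strand, GRCm38.p6: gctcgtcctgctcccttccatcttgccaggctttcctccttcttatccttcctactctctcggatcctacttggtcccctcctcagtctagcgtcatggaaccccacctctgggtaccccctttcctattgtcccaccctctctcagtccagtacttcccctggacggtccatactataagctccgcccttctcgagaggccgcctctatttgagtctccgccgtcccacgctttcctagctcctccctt
They differ in composition, with 66.8% GC in Psme1 and 57.2% in Psme2. Neither window holds TGACNNNGC or CCAAT.

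The induced beta subunits, which replace Psmb5, Psmb6 and Psmb7 in the immunoproteasome, were lower beside Psme2. Psmb8 stood at 64.7 FPKM in the library labelled Per2def and 77.9 FPKM in the library labelled Per2wt (−0.26). Psmb9 stood at 36.7 FPKM in the Per2def-labelled library and 48.5 FPKM in the Per2wt-labelled library (−0.39). Tap1 overlaps Psmb9 by 212 bases on the opposite strand. Tap1 stood at 24.9 FPKM in the Per2def-labelled library and 28.8 FPKM in the Per2wt-labelled library. As the strand setting of the counting is not given, reads of Psmb9 and Tap1 cannot be told apart with certainty. Psmb10 stood at 22.1 FPKM in the Per2def-labelled library and 27.4 FPKM in the Per2wt-labelled library (−0.30). All of the 3 were thus lower, whereas 62.0% of all measured genes were higher. Psmb8 and Psmb10 lay within the middle 95% of differences of other genes at 20 to 100 FPKM (−0.33 to 0.32). Psmb9 lay under that range. Each induced subunit was compared with the subunit it replaces, within a library. Psmb8 over Psmb5 was 1.34 in the library labelled Per2def and 1.42 in the library labelled Per2wt. Psmb9 over Psmb6 was 0.888 in the Per2def-labelled library and 1.11 in the Per2wt-labelled library. Psmb10 over Psmb7 was 0.428 in the Per2def-labelled library and 0.497 in the Per2wt-labelled library, so the induced share was lower at all of the 3 positions, while transcripts of the induced and standard forms stood at similar totals (124 and 141 FPKM in the library labelled Per2def, 154 and 153 FPKM in the library labelled Per2wt).

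**Figure D3:**
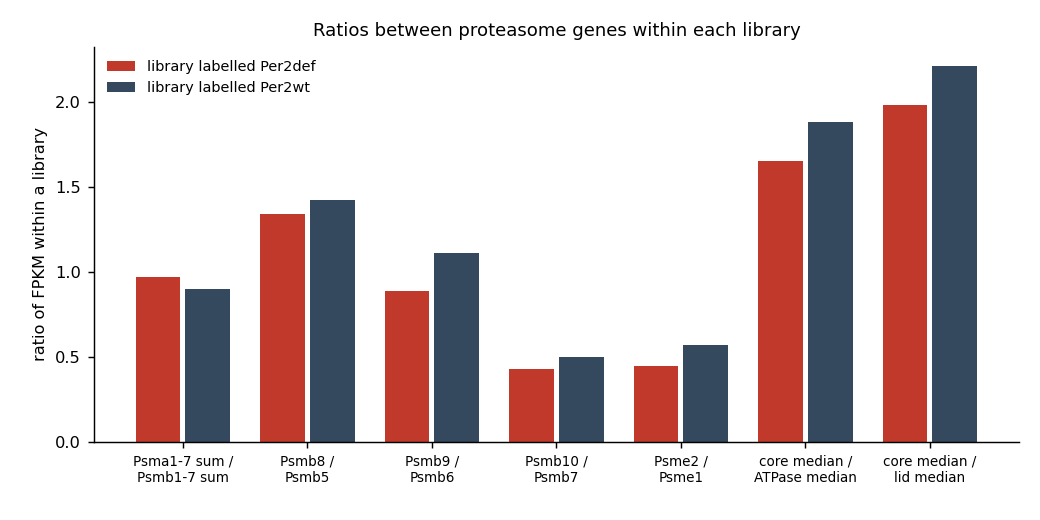
Ratios of FPKM between proteasome genes within each library (bars, from 0), library labelled Per2def left of library labelled Per2wt. The alpha to beta ratio was 0.972 in the Per2def-labelled library and 0.901 in the Per2wt-labelled library, while the induced to standard subunit ratios and Psme2 over Psme1 (0.445 in the Per2def-labelled library and 0.571 in the Per2wt-labelled library) were lower in the library labelled Per2def.

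Inhibitor and assembly genes stood below the standard core, ATPase and lid medians, apart from Psmg4, which lay above the lid median. Psmf1, which encodes the inhibitor PI31, stood at 4.93 FPKM in the library labelled Per2def and 4.64 FPKM in the library labelled Per2wt (0.07). The core chaperones work in pairs. Psmg1 stood at 18.4 FPKM in the Per2def-labelled library and 16.2 FPKM in the Per2wt-labelled library (0.18). Its partner Psmg2 stood at 17.0 FPKM in the Per2def-labelled library and 17.1 FPKM in the Per2wt-labelled library (−0.0076). Psmg3 stood at 12.6 FPKM in the Per2def-labelled library and 13.9 FPKM in the Per2wt-labelled library (−0.13). Its partner Psmg4, the most abundant of the 4, stood at 25.3 FPKM in the Per2def-labelled library and 26.9 FPKM in the Per2wt-labelled library (−0.09). Of the chaperones of the base, Psmd10 stood at 8.09 FPKM in the Per2def-labelled library and 7.09 FPKM in the Per2wt-labelled library (0.17). Psmd9 stood at 6.37 FPKM in the Per2def-labelled library and 6.26 FPKM in the Per2wt-labelled library (0.02), and was lower under median-of-ratios scaling. Psmd5, the most abundant, stood at 13.7 FPKM in the Per2def-labelled library and 14.1 FPKM in the Per2wt-labelled library (−0.04). Summed over these 7 assembly genes, FPKM was 101 in both libraries.

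The differences of most of the 45 lay within those of other genes of like level. Of the 34 at 20 to 100 FPKM, 33 lay within the middle 95% of differences of 1247 other genes at that level, small and predicted RNAs left out (−0.33 to 0.32), and Psme2 lay outside. The median absolute difference was 0.07 for the 34 and 0.09 for the other genes, whereas at 5 to 20 FPKM it was 0.12 for the 8 members and 0.11 for the other genes. All 8 genes at 5 to 20 FPKM lay within the range of their level (−0.33 to 0.42), as did Psmb11 and Psmf1 at 1 to 5 FPKM (−0.39 to 0.52), whereas Psma8 lay above it.

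**Figure D4:**
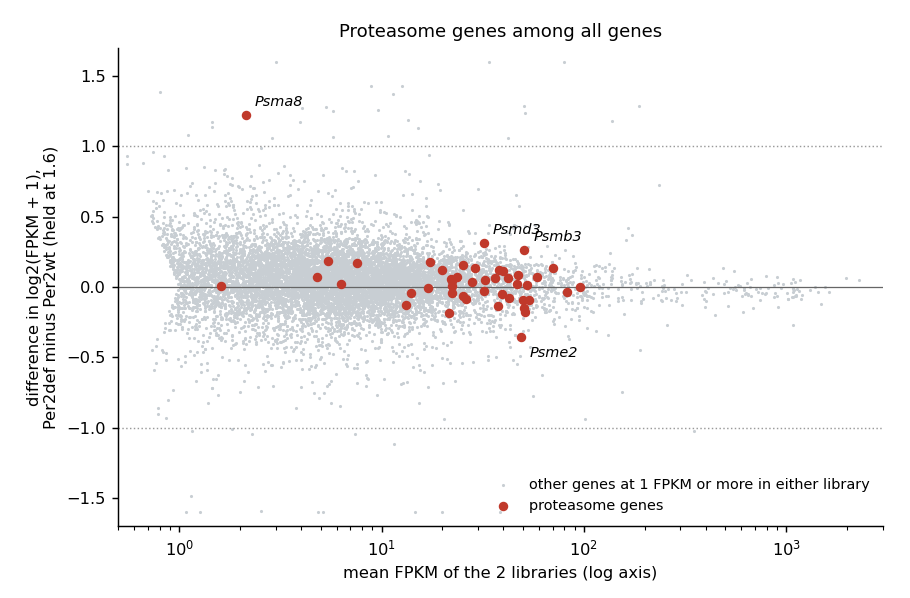
Mean FPKM of both libraries (log axis) against the difference in log2(FPKM + 1), library labelled Per2def minus library labelled Per2wt, for proteasome genes (red) and all other genes that reached 1 FPKM in at least 1 library except small and predicted RNAs (grey, with differences beyond 1.6 drawn at 1.6). Most red points lie in the dense band near 0, and Psma8 (1.23) lies above the dotted 2-fold line.

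Genes that serve the proteasome without a Psm name were described from a list of 33, of which 32 were found and measured (Paaf1 was not matched). Without the 3 induced subunits, 18 of 29 were higher and 11 lower in the library labelled Per2def (median difference 0.06). This is close to all measured genes, of which 62.0% were higher with a median of 0.05. Of the 29, 0 were past 2-fold, where 2.25% of all genes were. Nfe2l1, the gene of NRF1, stood at 11.8 FPKM in the library labelled Per2def and 11.7 FPKM in the library labelled Per2wt (0.0057). Ddi2, the protease that activates NRF1, stood at 11.3 FPKM in the Per2def-labelled library and 9.80 FPKM in the Per2wt-labelled library (0.19). Ngly1, which removes its sugar chains, stood at 5.81 FPKM in the Per2def-labelled library and 4.92 FPKM in the Per2wt-labelled library (0.20). Pomp, which matures the beta rings, was level at 70.7 FPKM in both (−0.00051). The other genes below were picked after their values were seen. Ufd1, a cofactor of the unfoldase VCP that feeds substrates to the proteasome (listed under an older name), stood at 11.3 FPKM in the Per2def-labelled library and 8.51 FPKM in the Per2wt-labelled library (0.37). Fbxo7, an F-box gene whose product binds the inhibitor PI31, stood at 11.3 FPKM in the Per2def-labelled library and 14.6 FPKM in the Per2wt-labelled library (−0.35). Uchl5, a deubiquitinase of the regulatory particle, stood at 17.3 FPKM in the Per2def-labelled library and 20.5 FPKM in the Per2wt-labelled library (−0.23). Its docking subunit Adrm1, a ubiquitin receptor, stood at 28.3 FPKM in the Per2def-labelled library and 25.4 FPKM in the Per2wt-labelled library (0.15). Sem1, the smallest lid subunit (also under an older name), stood at 94.7 FPKM in the Per2def-labelled library and 101 FPKM in the Per2wt-labelled library (−0.10). The 6 genes of ubiquitin and its activating enzymes ran from −0.15 to 0.13, with 2 higher and 4 lower.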

How the data were processed

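RNA-seq of sorted cells was analysed from 1 deposited table per library, grouped by the genotype label. The authors' Cufflinks run gave 1 FPKM value per gene, per the file headers. The submitters' processing notes also name CASAVA 1.8, TopHat and Bowtie2 and the builds GRCm38 and mm10. Poly(A) selection and a strand-marking kit are given in the labels' protocols. The sources used here do not give the annotation, read filters or strand setting. Cufflinks shares multiply mapping reads among copies, which can move values of near-identical genes.

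Of 24487 rows, 9 with a failed estimate and 27 with symbols turned into dates were left out, and rows sharing a symbol were summed. One short row, Mir6236, took 71.5% of FPKM in the library labelled Per2def and 71.3% in the other. Differences used a pseudocount of 1 FPKM and background counts a floor of 1 FPKM in either library (Python 3.11.15, pandas 2.3.3). Every member could be named. Full values went to catalytic subunits and, per group, to the highest and lowest members by level and the 2 highest and 2 lowest differences. The members and lists were chosen with earlier results of these data known. Psme2b, Sirt3, Nek6, Tap1, A730017L22Rik and the within-library ratios were added after the values were seen. Positions and near copies (megablast of principal transcripts) came from GENCODE M21. Alternatives were 4 scalings, pseudocounts of 0.1 and 0.5 FPKM, no floor and one of 5 FPKM, the highest row per symbol, other fold thresholds and the mean. The calculation was checked on simulated data.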

Additional observations from a re-analysis of the deposited data

How the results depend on the processing

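Scaling decided the direction of the small differences. Median-of-ratios scaling shifted every log2 ratio by −0.07 and the median of all genes to −0.0091; 16 members were then higher and 29 lower, with a median of −0.034. Summed differences were then −0.063 for the core, −0.042 for the ATPases, 0.019 for the lid, −0.15 for the activators and −0.070 for the assembly genes, with 5 core, 2 ATPase and 1 activator genes higher, against 0.0068, 0.03, 0.09, −0.08 and −0.00083 and 9, 4 and 2 genes as reported. A fixed total gave a median of 0.014 and summed differences of −0.0019 (core), 0.020 (ATPases), 0.080 (lid) and −0.0094 (assembly). Without small and predicted RNAs in that total, they were 0.015, −0.0010, 0.020, 0.081 and −0.0086. The mean over members was 0.046. The count past 2-fold was 0 with a floor of 5 FPKM, with a 4-fold threshold or without Psma8 (the last chosen after seeing the data). Over the alternatives 34 of the 45 genes kept their sign, 16 higher and 18 lower, and Psma8 ranged from 1.18 to 1.84. Upper-quartile scaling, both pseudocounts, no floor and the highest row per symbol changed the sign of no member. No paired analysis was possible because each genotype has 1 library, for which reason no replicate was left out either. Absolute depth is unknown, so low values such as those of Psma8 carry an unknown counting error.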
